A study of Mus musculus with 4 samples.

Results

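Pericytes and vascular smooth muscle cells are the mural cells of blood vessels, and 10 genes that mark them were followed in the cerebella of mice lacking 1 copy of Arid1b. Their rows were taken from the table of gene counts by gene symbol, and all 10 were found among the 24015 genes of that table. Pdgfrb, Abcc9, Kcnj8, Rgs5, Vtn and Cspg4 stand for pericytes, Acta2, Tagln and Myh11 for smooth muscle, and Notch3 for both. Messenger RNA came from dissected cerebella of C57BL/6N mice 140 to 150 days after birth. The heterozygous knockout group (HET) held 1 male and 1 female, and the wild type littermate group (WT) also held 1 male and 1 female. Which part of Arid1b was deleted, and whether each library was 1 animal, were not given in the sources used here. The p-values therefore rest on the spread among 4 libraries, which may be partly technical. That spread was shared in part across genes by the fit.

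Pericytes sit in the wall of capillaries and small venules, where endothelial cells draw them in by secreting PDGF-B, the ligand of PDGFRB. Smooth muscle cells ring arteries and arterioles and contract through an actin and myosin apparatus, whose genes are driven by serum response factor (SRF) acting at CArG boxes. Notch3 on mural cells receives ligands from the endothelium, and the signal reaches DNA through RBPJ. In bulk tissue, fewer cells of a type and less RNA per cell cannot be told apart.

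The stretches upstream of 4 of these genes are shown because the text follows their levels most closely. RefSeq promoters on GRCm38.p6, from 250 bases before to 50 after the annotated start, were held for 7 of the 10 genes. The build differs from that of the counts, so the coordinates serve only to place the sequences. Capitals mark CArG boxes with up to 1 mismatch in the A/T centre in Acta2, and TGGGAA (the core recognised by RBPJ, searched on both strands) in Abcc9 and Kcnj8. No capitals appear for Rgs5, whose window holds neither. The windows are chr19:34255324-34255623, minus strand, for Acta2, chr6:142702225-142702524, minus strand, for Abcc9, chr6:142571565-142571864, minus strand, for Kcnj8, and chr1:169655251-169655550, plus strand, for Rgs5.
Acta2: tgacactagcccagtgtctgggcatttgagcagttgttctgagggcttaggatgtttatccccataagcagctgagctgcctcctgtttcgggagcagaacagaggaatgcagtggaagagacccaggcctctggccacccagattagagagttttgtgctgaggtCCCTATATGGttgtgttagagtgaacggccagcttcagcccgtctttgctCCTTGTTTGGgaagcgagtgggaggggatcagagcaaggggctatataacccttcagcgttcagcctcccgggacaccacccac
Abcc9: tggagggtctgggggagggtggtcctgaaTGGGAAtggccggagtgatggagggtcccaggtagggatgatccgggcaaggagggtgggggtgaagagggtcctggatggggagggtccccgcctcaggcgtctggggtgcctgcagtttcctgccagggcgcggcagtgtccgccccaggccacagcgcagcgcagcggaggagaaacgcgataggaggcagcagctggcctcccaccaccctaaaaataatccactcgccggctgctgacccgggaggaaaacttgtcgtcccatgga
Kcnj8: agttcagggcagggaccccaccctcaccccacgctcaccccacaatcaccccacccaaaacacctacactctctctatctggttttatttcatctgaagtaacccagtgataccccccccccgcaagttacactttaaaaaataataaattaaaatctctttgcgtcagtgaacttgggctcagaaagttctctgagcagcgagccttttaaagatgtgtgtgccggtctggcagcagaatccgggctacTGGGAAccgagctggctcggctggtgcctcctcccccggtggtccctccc
Rgs5: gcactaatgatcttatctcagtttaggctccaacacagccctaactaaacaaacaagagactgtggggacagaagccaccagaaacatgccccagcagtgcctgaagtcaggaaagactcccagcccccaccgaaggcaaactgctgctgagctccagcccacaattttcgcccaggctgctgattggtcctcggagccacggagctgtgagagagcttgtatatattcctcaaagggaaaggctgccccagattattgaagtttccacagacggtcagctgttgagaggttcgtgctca

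The Acta2 window held CArG boxes starting 84 and 34 bases before the start site, and a TGGGAA 27 bases before it overlaps the second box. A CArG box with up to 1 mismatch was present in 1 of the 7 windows of these genes and in 9.98% of all 32851 promoters in the table, while 0 of the 7 and 1.63% of all held one without a mismatch. TGGGAA was found in 4 of the 7 windows (Abcc9, Kcnj8, Acta2 and Vtn) and in 25.56% of all promoters. These matches describe letters in a short window and not bound sites. Abcc9 and Kcnj8 lie on chromosome 6 and encode the 2 parts of one channel.

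The libraries held 20287016 counts in the male HET, 16453759 in the male WT, 15950899 in the female HET and 20616219 in the female WT. Arid1b, the targeted gene, stood at 52.9 and 55.8 CPM (counts scaled to the library total, a unit used throughout) in the male and female HET and at 69.9 and 71.0 in the male and female WT, so both heterozygotes lay below both wild types (log2 fold change -0.37 ± 0.11, SE, adjusted p = 0.243 in edgeR). Genes of cerebellar neurons summed to 3506 CPM in the male HET, 4142 in the male WT, 3556 in the female HET and 4930 in the female WT. All 8 of them had a lower fitted value in the heterozygotes, with 0 called, 7 at an unadjusted p under 0.05 and a median of -0.32 on the log2 scale (males -0.19, females -0.45), and their part in the mural values below was not tested. The male HET stood apart in skeletal muscle genes, which summed to 233.8 CPM there and to 8.87 to 16.5 CPM in the others. Choroid plexus genes were also highest there, at 2691 CPM against 1456 to 1549 CPM in the others. All 10 of them had a higher fitted value in the heterozygotes, with 0 called by edgeR and 6 at an unadjusted p under 0.05. Their median was 0.56 on the log2 scale (males 0.82, females 0.34), and their part in the mural values was not tested.

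All 10 mural genes passed the filter on low counts, with 39 counts (Kcnj8, female HET) as the smallest value in any library. Scaled to the length of the longest annotated transcript, the mean level over the 4 libraries was highest for Vtn at 41.3 CPM per kilobase. Acta2 followed at 8.13, Tagln at 6.29, Pdgfrb at 4.09, Rgs5 at 3.56 and Notch3 at 2.37 CPM per kilobase. Myh11 at 1.58, Cspg4 at 1.44, Kcnj8 at 1.26 and Abcc9 at 0.953 CPM per kilobase were the lowest. Vtn was the only gene whose range over libraries, 36.0 to 51.6, lay clear of the next in this order. Every later neighbouring pair overlapped between libraries.

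**Figure D1:**
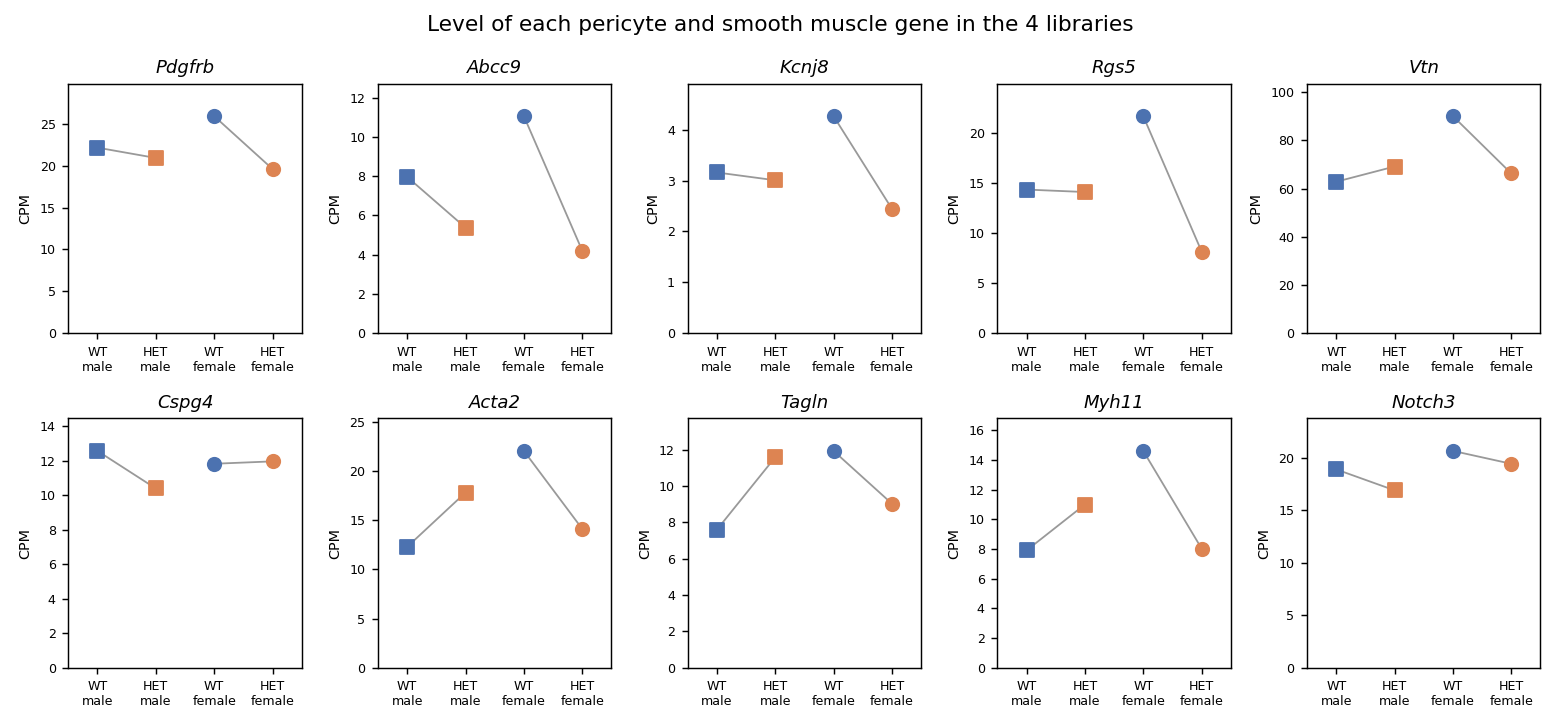
Level in CPM (linear axis from 0) of each of the 10 genes in the 4 libraries, 1 point per library, blue for wild type and orange for heterozygote, squares for males and circles for females, with grey lines joining the libraries of 1 sex. The female wild type is the highest library in 9 of the 10 panels, and the lines of Vtn, Acta2, Tagln and Myh11 slope up in males and down in females.

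Between the genotypes, 9 of the 10 genes had a lower fitted value in the heterozygotes and 1, Tagln, a higher one. Of all 15117 genes tested, 7394 were lower and 7723 higher. The median log2 fold change (HET over WT) was -0.17, against 0.01 over all 15117 genes tested. Fits with a library left out had genotype as their only term. In them the median was -0.43 without the male WT, -0.29 without the male HET, -0.22 without the female HET and -0.09 without the female WT. In the fit without the female WT, 6 of the 10 were lower. None of the 10 was called at an adjusted p under 0.05 by edgeR (quasi-likelihood test), against 3 genes or 0.0198% of those tested, and limma-voom, DESeq2 and edgeR's likelihood ratio test also called none of them. DESeq2 gave Abcc9 and Kcnj8 no adjusted p. At an unadjusted p under 0.05 stood 1 of the 10, Abcc9, against 11.7% of all genes. In 4 of the 10, Pdgfrb, Abcc9, Kcnj8 and Rgs5, both heterozygotes lay below both wild types, an order shown by 22.6% of all genes, and in the other 6 the genotypes overlapped. The summed level of 20 endothelial genes moved with them, at 377 CPM in the female HET, 428 in the male HET, 453 in the male WT and 643 in the female WT, and its part in the mural values was not tested.

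Abcc9, the sulfonylurea receptor subunit (SUR2) of the ATP-sensitive potassium channel of mural cells, had the largest difference. It stood at 5.37 CPM in the male HET, 4.20 in the female HET, 7.96 in the male WT and 11.1 in the female WT. Both heterozygotes were thus below both wild types, with the widest gap between the females. Heterozygotes averaged 4.79 ± 0.829 CPM (SD, n = 2) and wild types 9.51 ± 2.19 CPM (SD, n = 2). The log2 fold change of Abcc9 was -0.97 ± 0.26 (SE), a 0.509-fold level, and did not pass (edgeR quasi-likelihood test, adjusted p = 0.207). Within each sex, the log2 ratio of single libraries was -0.56 in males and -1.37 in females, beyond the 95% counting half-widths of 0.37 and 0.39, which cover counting error only. Vtn, Acta2, Tagln and Myh11 also went beyond theirs in both sexes, but with opposite signs in males and females. With a library left out in turn, the Abcc9 log2 fold change ran from -1.20 to -0.73.

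Kcnj8 encodes Kir6.1, the pore that Abcc9's product regulates. Its levels were 3.01 CPM in the male HET, 2.45 in the female HET, 3.16 in the male WT and 4.27 in the female WT. The males were nearly level, and the female pair was farther apart. The log2 fold change was -0.43 ± 0.33 (SE; edgeR quasi-likelihood test, adjusted p = 0.663), and with a library left out it ran from -0.64 without the male WT to -0.21 without the female WT. The log2 ratio was -0.07 in males and -0.78 in females, with counting half-widths of 0.53 and 0.54, so a difference of the male size was not detectable at this depth. The channel subunits that are mainly neuronal and endocrine, Abcc8 and Kcnj11, had log2 fold changes of -0.17 ± 0.13 and 0.07 ± 0.11 (SE), and neither passed.

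Rgs5, a regulator of G-protein signalling abundant in brain pericytes, was at 14.1 CPM in the male HET and 14.3 in the male WT. In the females it was at 8.15 CPM in the HET and 21.7 in the WT. The males were level and lay between the female libraries, whose gap was about that of Abcc9. The log2 ratio was -0.03 in males and -1.40 in females. Over all libraries the Rgs5 log2 fold change was -0.70 ± 0.34 (SE; edgeR quasi-likelihood test, adjusted p = 0.513). It was -0.36 without the female WT, -0.37 without the female HET, -0.95 without the male WT and -1.14 without the male HET.

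Pdgfrb, the PDGF receptor that holds pericytes on the vessel, varied less. It stood at 20.9 CPM in the male HET, 19.6 in the female HET, 22.2 in the male WT and 26.0 in the female WT. The genotypes did not overlap, and the male pair lay close together. The log2 fold change was -0.24 ± 0.16 (SE; edgeR quasi-likelihood test, adjusted p = 0.595), with -0.08 in males and -0.40 in females. It was -0.13 without the female WT and -0.35 without the male WT.

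Vtn, the secreted adhesion protein vitronectin that pericytes of the brain produce, was at 69.2 CPM in the male HET, 66.3 in the female HET, 62.8 in the male WT and 90.1 in the female WT. The female WT alone stood high, and the genotypes overlapped. The log2 ratio of Vtn was 0.14 in males and -0.44 in females, opposite signs as in the smooth muscle genes below. The Vtn log2 fold change was -0.15 ± 0.14 (SE), and turned to 0.11 without the female WT. Without the male WT it was -0.41.

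Cspg4 (NG2), a proteoglycan of pericytes that oligodendrocyte precursors carry too, did not follow the other pericyte genes. It stood at 10.4 CPM in the male HET, 11.97 in the female HET, 12.6 in the male WT and 11.8 in the female WT. It was the 1 gene of the 10 in which the female WT was not the highest library. Its log2 fold change was -0.13 ± 0.20 (SE), with -0.27 in males and 0.02 in females, and leaving out single libraries gave -0.24 to -0.02. Oligodendrocyte precursor genes, whose part in the Cspg4 values was not tested, summed to 391 to 459 CPM, lowest in the female WT, and 8 of 9 had a higher fitted value in the heterozygotes.

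The smooth muscle genes had opposite signs in the sexes. Acta2, smooth muscle alpha-actin, was at 17.8 CPM in the male HET and 12.3 in the male WT, but at 14.1 in the female HET and 22.0 in the female WT. Tagln (SM22), an actin-binding protein, was at 11.6, 7.60, 9.03 and 11.9 CPM in the same order of libraries. Myh11, the smooth muscle myosin heavy chain, was at 10.99, 7.90, 8.02 and 14.6 CPM. In each of them the female WT and the male HET were the higher libraries and the other two the lower ones, so the genotypes overlapped. For Myh11 the lower libraries were nearly equal. The log2 ratios of Acta2, Tagln and Myh11 were 0.53, 0.60 and 0.47 in males and -0.64, -0.40 and -0.85 in females. Over both sexes they came to -0.06 ± 0.28, 0.10 ± 0.26 and -0.20 ± 0.32 (SE), and none passed (edgeR, adjusted p = 0.963, 0.925 and 0.872). These directions turned with the library left out, over ranges of -0.46 to 0.38 for Acta2, -0.20 to 0.44 for Tagln and -0.61 to 0.27 for Myh11.

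Genes of other tissues were also high in the male HET. Meningeal fibroblast genes summed to 245.6 CPM there, against 176.4 in the male WT, 210.8 in the female HET and 202.9 in the female WT, and 11 of their 14 genes were highest in the male HET. Of the skeletal muscle genes, Acta1, skeletal alpha-actin, chosen after its values were seen, had 774 counts in the male HET and 33, 29 and 72 in the male WT, female HET and female WT. Its coding sequence is close to that of Acta2, so reads could be split between them in a way the counting does not show. Tagln overlaps Pcsk7 on the opposite strand, which had 620 to 861 counts, and whether reads were counted by strand was not stated in the labels. The part of any of these in the smooth muscle values was not tested.

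Notch3, the mural Notch receptor, was the steadiest gene of the group together with Cspg4. It stood at 16.9 CPM in the male HET, 19.4 in the female HET, 18.9 in the male WT and 20.7 in the female WT. Its log2 fold change was -0.12 ± 0.16 (SE), with -0.16 in males and -0.09 in females, and leaving out single libraries gave -0.24 to -0.02. The genotypes overlapped, and each within-sex ratio was under its counting half-width of 0.22 and 0.21.

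**Figure D2:**
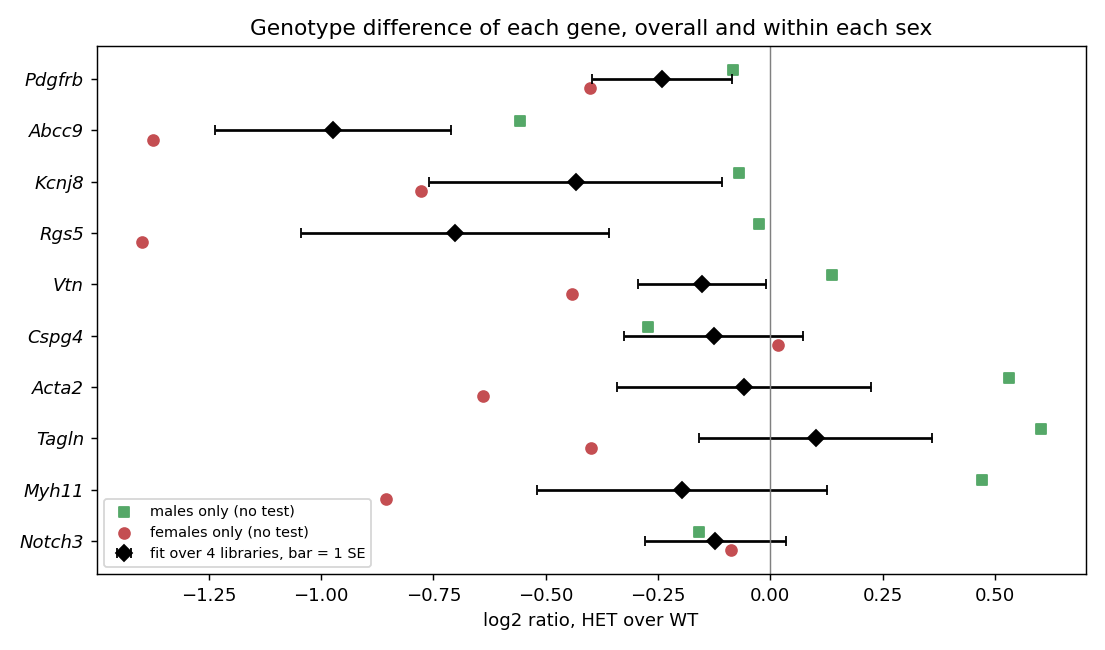
Log2 ratio of heterozygote over wild type for each of the 10 genes, with black diamonds for the fit over 4 libraries (bars, 1 SE), green squares for the 2 male libraries and red circles for the 2 female libraries, which have no test. The red circles lie left of zero for 9 genes, Cspg4 excepted, while the green squares of Acta2, Tagln, Myh11 and Vtn lie right of it.

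Subtracting the male from the female genotype effect gave a value that was negative in 8 of the 10 genes, with a median of -0.78 on the log2 scale, against 0.02 over all genes. It was -1.37 ± 0.35 (SE) for Rgs5, -1.34 ± 0.41 for Myh11, -1.17 ± 0.37 for Acta2 and -1.005 ± 0.40 for Tagln. For Abcc9 it was -0.83 ± 0.44, for Kcnj8 -0.73 ± 0.60, for Vtn -0.58 ± 0.26 and for Pdgfrb -0.32 ± 0.30. Cspg4 and Notch3 had 0.29 ± 0.37 and 0.07 ± 0.33. None of them passed (edgeR quasi-likelihood test, adjusted p = 0.998 for each of the 10), against 0.0198% of all genes. At an unadjusted p under 0.05 were 4 of the 10, Rgs5, Myh11, Acta2 and Tagln, against 3.55% of all genes. Other vessel lists shared the negative median. It was -0.72 for the endothelial genes, with 8 of 20 at an unadjusted p under 0.05. Further smooth muscle genes had -0.58 with 4 of 15, further pericyte genes -0.64 with 0 of 15, and basement membrane genes -0.16 with 2 of 11. With 1 library per genotype and sex, a difference between the sexes and one between single libraries cannot be told apart. The sex term itself called 0 of the 10 genes and 0.0595% of all, with a median of 0.12 (female minus male).

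The female WT was the highest of the 4 libraries for 9 of the 10 genes and for 29.7% of all genes tested. The same library was highest for 18 of 20 endothelial genes, 8 of 8 cerebellar neuron genes, 11 of 15 further pericyte genes and 8 of 11 basement membrane genes, so this trait was shared with other lists. The female HET was the lowest for 4 of them, Pdgfrb, Abcc9, Kcnj8 and Rgs5, against 19.8% of all genes. The male WT was lowest for Vtn, Acta2, Tagln and Myh11. The call of the genotype difference depended on the male WT and on the filter. Without the male WT, where genotype is the only term and the lone WT library is assumed to vary like the others, 5 of the 10 genes passed (Abcc9, Rgs5, Vtn, Acta2 and Myh11), beside 17.5% of all genes. With no filter on low counts, Abcc9 and Rgs5 passed (adjusted p of 0.0107 and 0.0228 in edgeR), beside 2.92% of all genes.

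Other genes of the vessel wall gave the setting. Of 15 further pericyte genes, 11 had a lower and 4 a higher fitted value in the heterozygotes, 0 were called by edgeR, 7 had an unadjusted p under 0.05, and the median log2 fold change was -0.29 (-0.23 in males and -0.70 in females). Atp13a5, a P5-type ATPase found in brain pericytes, was at 6.70 CPM in the male HET, 7.40 in the female HET, 11.2 in the male WT and 14.1 in the female WT. Its genotypes did not overlap, as for Abcc9, and its log2 fold change was -0.83 ± 0.21 (SE; edgeR, adjusted p = 0.189). The forkhead factors Foxf2 and Foxc1, which act in mural cell development, had -1.02 ± 0.33 and -0.76 ± 0.29 (SE), and Mcam, an adhesion molecule of vessel walls, had -0.25 ± 0.11 (SE). None of these 4 passed. The median was -0.63 without the male HET, -0.68 without the male WT, -0.32 without the female HET and -0.35 without the female WT.

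Of 15 tested further genes listed for smooth muscle, 9 were lower and 6 higher. By edgeR 0 were called and 3 had an unadjusted p under 0.05. The median was -0.07, with 0.14 in males and -0.52 in females. The 16 listed genes summed to 383 to 437 CPM, against 27.8 to 48.6 CPM for Acta2, Tagln and Myh11. Smtn, smoothelin, had log2 ratios of 0.05 in males and -1.11 in females. Cald1, the thin-filament protein caldesmon, and Casq2, a calcium store protein, had -0.41 ± 0.14 and -0.49 ± 0.15 (SE). Sncg, gamma-synuclein, which is not a contractile protein and which neurons also express, had 0.52 ± 0.12 (SE). None passed. The median was -0.41 without the male HET and 0.06 without the female HET. Srf, Mkl1 and Mkl2, SRF and its coactivators, lay between -0.13 and 0.16, and Myocd, the coactivator of smooth muscle, was not tested, with too few counts.

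Endothelial genes, the lining that pericytes cover, had a lower fitted value in all 20 tested, with 0 called, 11 at an unadjusted p under 0.05 and a median of -0.47 (-0.11 in males and -0.86 in females). Slco1a4, a transporter of the blood-brain barrier, was at 28.1 CPM in the male HET, 26.6 in the female HET, 41.5 in the male WT and 59.2 in the female WT, the same order of libraries as Abcc9. Its log2 fold change was -0.85 ± 0.16 (SE; edgeR, adjusted p = 0.136). The endothelial median was -0.19 without the female WT and -0.72 without the male WT. Of 11 basement membrane genes, 9 were lower and 2 higher, with a median of -0.17, 0 called and 0 at an unadjusted p under 0.05. Their sum was nonetheless highest in the female HET, at 375 CPM, against 365 in the female WT, 353 in the male WT and 319 in the male HET. In females 9 of the 11 were lower in the heterozygote, while Col4a2 was at 50.3 CPM in the HET and 33.5 in the WT. The TIE receptors Tie1 and Tek had -0.57 ± 0.22 and -0.63 ± 0.27 (SE). Angpt1, the mural ligand of Tek, had -0.11 ± 0.20 (SE), and Angpt2 had 0.31 ± 0.42 (SE). Of these 4 angiopoietin and TIE genes, 3 were lower and 1 higher, with 0 called and 2 at an unadjusted p under 0.05. Of 8 blood cell genes, 6 were listed at 0 in every library. Alas2, of heme synthesis in red cells, was at 29.2 CPM in the male WT and 5.71 to 11.8 CPM in the others.

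**Figure D3:**
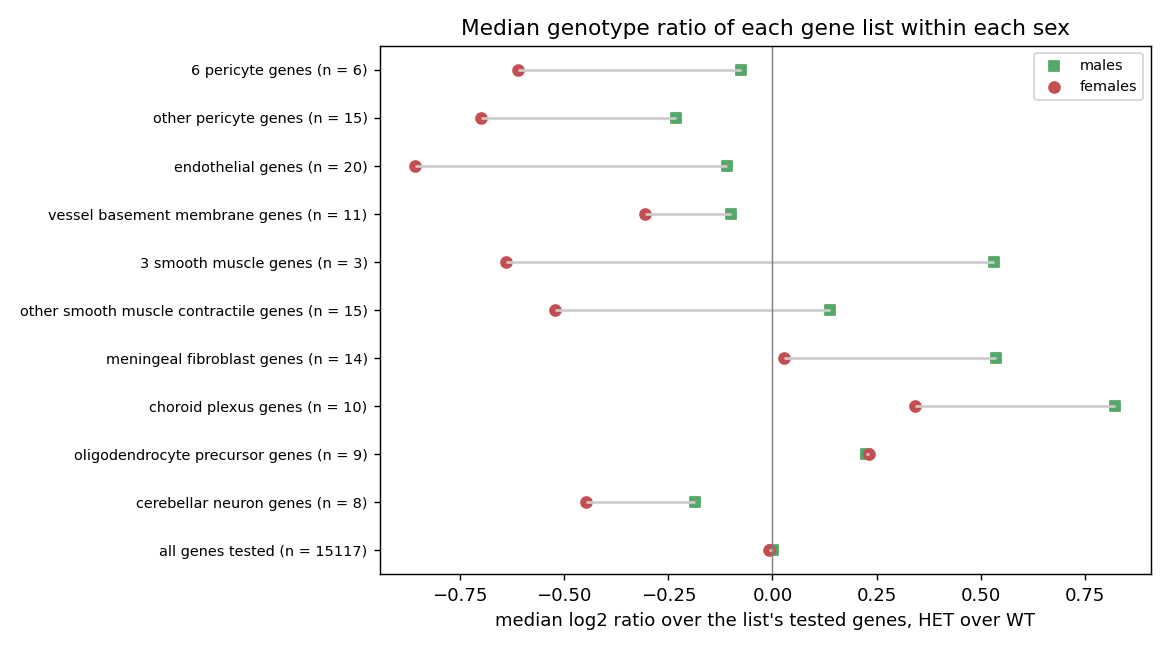
Median log2 ratio of heterozygote over wild type over the tested genes of each list, with green squares for the 2 male libraries, red circles for the 2 female libraries and n the number of genes. Pericyte and endothelial lists lie left of zero in both sexes and farther in females, while the 3 smooth muscle genes lie at 0.53 in males and -0.64 in females.

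Ligands and partners of the receptors did not share a direction. Pdgfb, the endothelial ligand of Pdgfrb, was at 12.8 CPM in the male HET, 12.5 in the female HET, 11.9 in the male WT and 17.3 in the female WT, with -0.18 ± 0.20 (SE). Pdgfa and Pdgfc, ligands of the alpha receptor, had 0.35 ± 0.14 and 0.41 ± 0.28 (SE), and the alpha receptor Pdgfra 0.11 ± 0.15 (SE). Of the 5 PDGF genes, 4 were higher, 1 lower and 0 called, with 1 (Pdgfa) at an unadjusted p under 0.05. Of 12 Notch receptors, ligands and targets, 7 were lower and 5 higher, with a median of -0.07, 0 called and 2 at an unadjusted p under 0.05. Heyl, a Notch target expressed in mural cells, was at 11.3 CPM in the male HET, 12.4 in the female HET, 9.36 in the male WT and 7.47 in the female WT, which ran opposite to the pericyte genes. Its log2 fold change was 0.50 ± 0.22 (SE), that of Nrarp, a feedback target, 0.48 ± 0.21 (SE) and that of Hes1 -0.38 ± 0.26 (SE), and none passed.

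The summed CPM of these genes was also set against that of the 20 endothelial genes, a ratio chosen after the values were seen. The female log2 ratio (HET over WT) went from -0.55 to 0.22 for the 6 pericyte genes and from -0.64 to 0.13 for the 3 smooth muscle genes. The male log2 ratio went from 0.00 to 0.08 and from 0.54 to 0.62. So on this scale the female sums changed sign and lay closer together, and the male sums lay slightly farther apart. In females Cspg4 and Notch3 moved away from level, from 0.02 to 0.79 and from -0.09 to 0.68. The 6 pericyte genes made 28.8 CPM per 100 CPM of endothelial genes in the male HET, 27.2 in the male WT, 29.9 in the female HET and 25.6 in the female WT. Vtn makes up most of that sum, and without it the values were 12.6, 13.3, 12.3 and 11.6, lower in the male HET than in the male WT and higher in the female HET than in the female WT. Of the 10 genes, Abcc9 was the one with a lower value on this scale in both sexes, at 1.26 in the male HET against 1.76 in the male WT and 1.11 in the female HET against 1.72 in the female WT. Rgs5 was at 3.30 against 3.17 in males and 2.16 against 3.37 in females. The smooth muscle genes were at 9.44 in the male HET and 6.13 in the male WT, and at 8.27 in the female HET and 7.55 in the female WT. With 1 library in each cell of the design these ratios have no test.

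**Figure D4:**
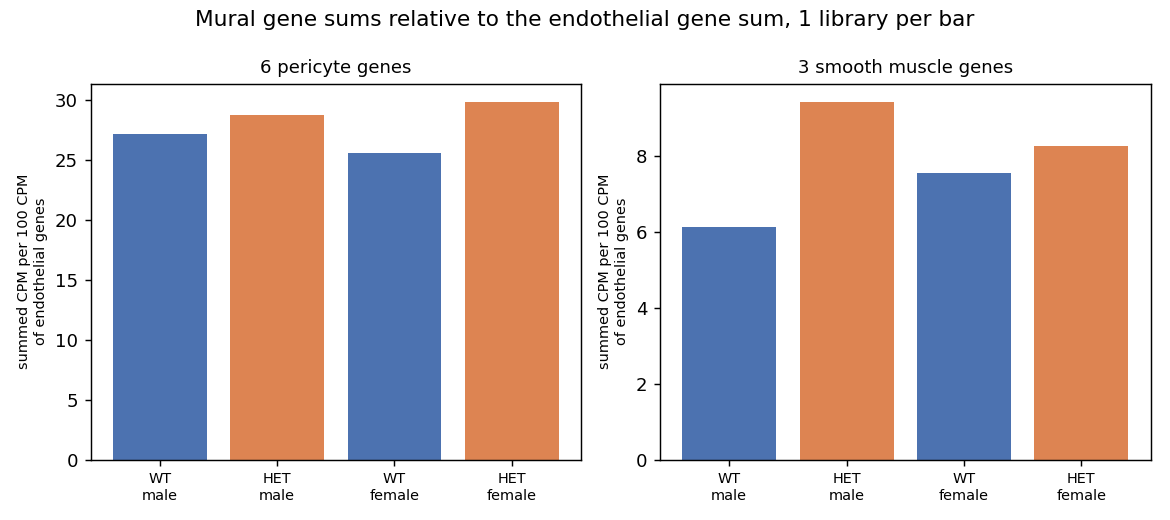
Summed CPM of the 6 pericyte genes (left) and the 3 smooth muscle genes (right) per 100 CPM of 20 endothelial genes, 1 bar per library on an axis from 0, blue for wild type and orange for heterozygote. The pericyte bars lie between 25.6 and 29.9, and the smooth muscle bars between 6.13 (male wild type) and 9.44 (male heterozygote).

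The 8 genes whose centred log2 profile over the 4 libraries lay nearest to the mean profile of the 10 mural genes were Dus4l, Hopx, Slc22a8, Ankrd16, Eps8l2, Ptrf, Slc1a3 and Timp4, with Euclidean distances of 0.025 to 0.079 among 11853 genes. The mean profile was -0.03 in the male HET, -0.09 in the male WT, -0.26 in the female HET and 0.38 in the female WT. Slc1a3, the glutamate transporter of Bergmann glia and astrocytes, was at 709 CPM in the male HET, 691 in the male WT, 616 in the female HET and 898 in the female WT. Slc1a3 thus had the order of the mural mean with a far higher level. Ptrf encodes a coat protein of caveolae, the membrane pits abundant in vessel cells. Among the 10 genes themselves, Kcnj8 lay nearest to their mean profile at 0.144, and Abcc9 farthest at 0.683.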

How the data were processed

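The authors deposited raw counts of reads per gene symbol, 1 column per library. Per the labels' protocols, libraries were strand-specific and poly(A)-selected, and all 4 were sequenced in a single lane as single-end reads. Per the submitters' processing notes, the tools were STAR, featureCounts, FastQC and edgeR on mm9, with versions and strand setting not given in the sources used here.

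Counts were filtered with filterByExpr, leaving 15117 genes with 99.95% of the counts, and scaled by TMM (factors 0.999 to 1.00). Genotype and sex were terms of a robust quasi-likelihood fit (edgeR 4.0.16, R 4.3.3) with 1 residual degree of freedom, two-sided, with Benjamini-Hochberg adjustment over all genes. The SE is the log2 fold change divided by the square root of F. The fit moderated each gene's spread toward that of all genes (median prior degrees of freedom 10.56). An SE is therefore not that gene's own spread alone. For the contrast of sexes, genotype and its product with sex were fitted without a sex term, so the sex effect is left as residual. Within-sex ratios used a prior count of 2. Lengths came from GENCODE M21. A level of 0.146 to 0.188 CPM is what 3 counts make. Scripts were tested on simulated data. The fits were repeated with DESeq2 1.42.0, limma-voom (limma 3.58.1), other scalings and filters, and with each library left out. Each fit with a library left out also dropped the sex term, so it differs from the main fit in both.

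The members and lists were chosen with earlier results of these data known. The named genes were the 10 members, up to 4 tested genes of smallest p per list, the 8 nearest profiles (mean of at least 5 CPM, pseudocount 0.1 CPM) and Arid1b.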

Additional observations from a re-analysis of the deposited data

How the results depend on the processing

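Over all 4 libraries, 80 genotype values of the 10 genes under other tests, scalings, filters and terms kept their direction. Of these, 76 kept their side of the threshold and 2, Abcc9 and Kcnj8 with DESeq2, had no adjusted p. Abcc9 and Rgs5 passed with no low-count filter, so that 2 genes passed in place of 0. With a library left out, 6 of 40 values turned: Vtn ran from -0.41 to 0.11, Acta2 from -0.46 to 0.38, Tagln from -0.20 to 0.44 and Myh11 from -0.61 to 0.27. The number of the 10 genes past the threshold then ran from 0 to 5, with 5 without the male WT, and the number with a lower value from 6 to 10. The median of all 10 ran from -0.43 to -0.09, the pericyte median from -0.52 to -0.19 and the smooth muscle median from -0.46 to 0.38. The sex term of Rgs5 turned from -0.07 to 0.0287 with limma-voom.

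Over all genes, the 3 genotype calls became 204 with the likelihood ratio test, 34 with DESeq2, 7 with DESeq2's size factors, 13 with library totals, 553 with no filter, and 0 with at least 1 CPM in 2 libraries or no sex term, and leaving out libraries gave 0 to 2730 (2730 without the male WT, 658 without the female WT, 0 without the male HET). Calls for the sex term went from 9 to 17 (likelihood ratio test) or 48 (no filter), and calls for the difference between the sexes from 3 to 7 with the likelihood ratio test and 6 with limma-voom or no filter. The cause was not tested. The labels give no replicate numbers, and the sex term of the main analysis already pairs each heterozygote with the wild type of its sex, leaving 1 residual degree of freedom. Kcnj8, at 39 to 88 counts, is the gene most limited by depth.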
